A study of Arabidopsis thaliana with 15 samples.

Results

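The 10 genes RBOHA to RBOHJ encode the respiratory burst oxidase homologs of Arabidopsis thaliana, the NADPH oxidases of its plasma membrane, and were taken by locus from a table of 32548 genes. By locus they are RBOHA (AT5G07390), RBOHB (AT1G09090), RBOHC (AT5G51060), RBOHD (AT5G47910), RBOHE (AT1G19230), RBOHF (AT1G64060), RBOHG (AT4G25090), RBOHH (AT5G60010), RBOHI (AT4G11230) and RBOHJ (AT3G45810). RNA came from whole 11-day-old seedlings raised on Murashige and Skoog plates, and each of 5 groups had 3 libraries, 15 in all. The wrky-qm seedlings carried mutations of WRKY7, WRKY11, WRKY17, WRKY21 and WRKY39 on both chromosome copies (genotype wrky7-/-11-/-17-/-21-/-39-/-). The wrky-qm_15_hz seedlings carried the same mutations with 1 copy of WRKY15 also mutated (wrky15+/-), and the obe1-2 seedlings were obe1-/- obe2-/- double mutants. Both wild-type sets, Col-0_1 and Col-0_2, were of the Col-0 ecotype, the only ecotype the labels name, and received no treatment, as did the mutants. WRKY proteins are transcription factors, OBE1 and OBE2 are PHD-finger proteins, and the series title places such proteins in 1 repressing complex on stress genes. The labels give no allele for any mutation, tie neither wild-type set to a mutant, and do not say whether replicates came from separate plates, so the p-values speak only of library-to-library spread, which may be technical.

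RBOH enzymes pass electrons from NADPH in the cytosol across the plasma membrane to oxygen and so make superoxide in the cell wall space, where it is turned into hydrogen peroxide. Calcium binding at their N-terminal part and phosphorylation by kinases switch them on. RBOHD makes most of the oxidative burst of leaf immunity, and RBOHF acts with it in stomata under abscisic acid and in the lignin of the Casparian strip. RBOHC, also named RHD2, drives the tip growth of root hairs. RBOHH and RBOHJ do so in pollen tubes, RBOHE acts in the tapetum of anthers, and RBOHB has been linked to the after-ripening of seeds.

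WRKY factors are known to bind the W-box, whose core is TTGAC, so the letters before the start of 9 members were searched for it on both strands. Promoters are printed for RBOHD and RBOHG, which rose by similar amounts in wrky-qm_15_hz and in obe1-2, and for RBOHF, which rose and held no core. Each is the 250 bases before the annotated gene start, written 5′ to 3′ along the gene from RefSeq assembly TAIR10.1. Capitals mark TTGAC, and GTCAA, its form on the other strand, does not occur in these windows. The RBOHD window lies at chr5:19396791-19397040 on the plus strand, that of RBOHG at chr4:12883806-12884055 on the minus strand and that of RBOHF at chr1:23769524-23769773 on the plus strand.
RBOHD: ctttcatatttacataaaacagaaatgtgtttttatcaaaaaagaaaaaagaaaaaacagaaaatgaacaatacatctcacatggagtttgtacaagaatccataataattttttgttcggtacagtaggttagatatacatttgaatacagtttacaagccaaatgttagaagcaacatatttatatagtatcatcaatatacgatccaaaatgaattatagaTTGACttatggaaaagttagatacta
RBOHG: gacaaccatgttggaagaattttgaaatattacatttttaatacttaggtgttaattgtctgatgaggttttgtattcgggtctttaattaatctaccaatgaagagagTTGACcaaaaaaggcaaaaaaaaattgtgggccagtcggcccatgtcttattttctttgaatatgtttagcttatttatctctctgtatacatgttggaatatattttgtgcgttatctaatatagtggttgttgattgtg
RBOHF: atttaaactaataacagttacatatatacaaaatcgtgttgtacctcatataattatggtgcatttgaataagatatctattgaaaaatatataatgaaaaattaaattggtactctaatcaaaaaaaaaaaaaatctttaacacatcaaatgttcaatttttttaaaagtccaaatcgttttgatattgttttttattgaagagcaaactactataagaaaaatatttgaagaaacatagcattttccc
The RBOHD window held 1 core, whose first base lay 26 bases before the start and which read TTGACT. The RBOHG window held 1 core, TTGACC, at 141 bases. Among the others, RBOHA and RBOHE had 1 each and RBOHH 2, while RBOHC, RBOHF, RBOHI and RBOHJ had 0. Of 27443 protein-coding genes, 44.9% had at least 1 core in such a window and 14.1% at least 2. Over 1000 bases, the longer form TTGACC or TTGACT occurred 3 times before RBOHG and 2 times each before RBOHA, RBOHD, RBOHH and RBOHI. It occurred 1 time before RBOHE and was not found before RBOHC, RBOHF and RBOHJ, and 67.3% of all genes had at least 1. A match in letters is not a bound site.

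Library totals lay between 44049333 and 49934976 normalised reads, the scale of all levels below, and the median coefficient of variation between replicates was 3.63% to 4.76% in genes with a mean of 1000 or more. Fold changes were computed on log2(value + 1), which understates the change of low genes. OBE1 averaged 11.1 in obe1-2 libraries, against Col-0_1 and Col-0_2 means of 2194 and 2546, while OBE2 still averaged 1811, against means of 3813 and 4279. WRKY17 averaged 184 in wrky-qm libraries and 411 in wrky-qm_15_hz libraries, against means of 1028 and 849 in those sets. WRKY7 and WRKY11 transcripts were higher than in both wild-type sets in wrky-qm and in wrky-qm_15_hz. WRKY21 and WRKY39 were lower in wrky-qm (log2 -0.62 and -0.53), and of these only WRKY39 was called in wrky-qm_15_hz (-0.82). WRKY15 averaged 3129 in wrky-qm and 2637 in wrky-qm_15_hz, against Col-0_1 and Col-0_2 means of 795 and 1006. A level summed over a whole gene does not show whether a mutation of unstated kind is present, so the levels of the WRKY genes and of OBE2 do not check the labels. In each library of Col-0_1 and wrky-qm, 8177 and 7949 zeros were stored as tiny positive numbers. Any other zeros there, and all zeros of the other groups, were exact 0. Member values against each wild-type set alone are therefore given beside those against both. Differences of wrky-qm_15_hz and obe1-2 from wrky-qm also cross this split in storage, and what it reflects was not tested.

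Of the 10 members, 8 passed the filter of a mean of at least 1 in 1 group and were tested. In wrky-qm, 3 of these 8 rose (RBOHD, RBOHF, RBOHG) and 2 fell (RBOHB, RBOHI) against both wild-type sets, at a limma adjusted p below 0.05. Of all 25085 genes tested, 26.9% were called in wrky-qm, 15.5% as higher and 11.4% as lower. These were 3886 genes higher and 2857 lower, a split that quantile normalisation turned to 3292 higher and 4480 lower. In wrky-qm_15_hz, 4 members rose (RBOHD, RBOHE, RBOHF, RBOHG) and 3 fell (RBOHB, RBOHC, RBOHI), where 54% of all genes were called, 26.5% higher and 27.4% lower. The same members were called in the same directions in obe1-2, where 61.7% of all genes were called, 29.2% higher and 32.5% lower. RBOHA passed in no mutant.

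For RBOHD, RBOHF and RBOHG all 3 libraries of every mutant lay above all 6 wild-type libraries, and for RBOHE those of wrky-qm_15_hz and obe1-2 did. For RBOHB and RBOHI all 3 libraries of every mutant lay below all 6, for RBOHE those of wrky-qm did, and for RBOHC those of wrky-qm_15_hz and obe1-2. Over all genes tested, 19.6% lay wholly above and 16% wholly below in wrky-qm, 28.5% and 28.3% in wrky-qm_15_hz, and 31.2% and 33% in obe1-2. The mutants share their wild-type libraries, so their calls are not independent of each other. Seedlings were measured whole, so fewer cells of a type and less RNA per cell cannot be told apart.

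**Figure D1:**
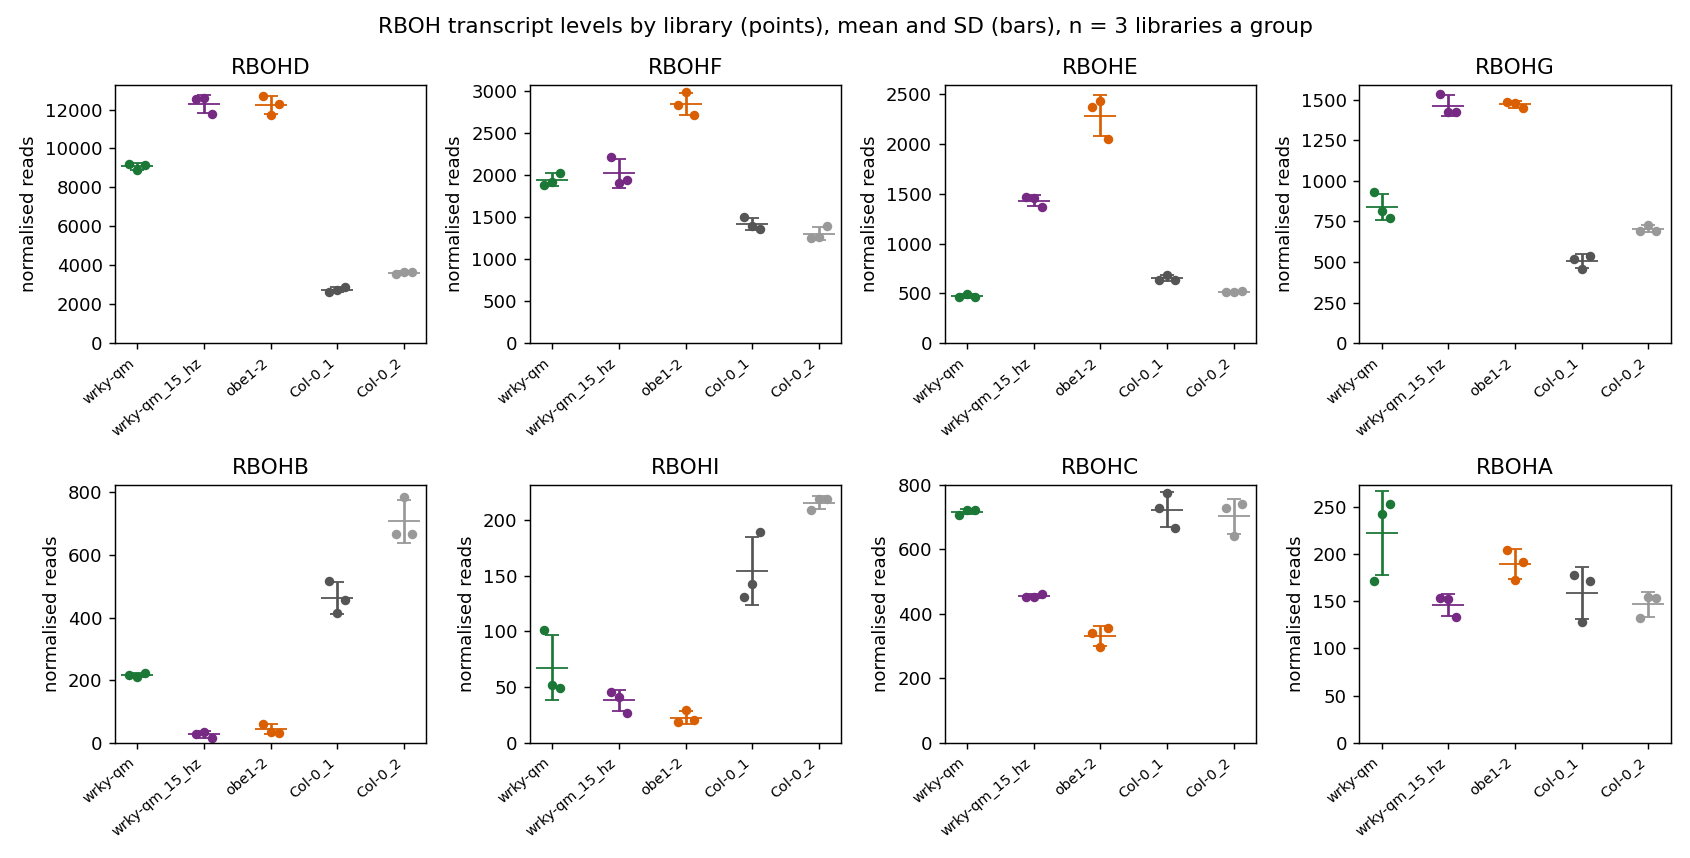
Level of the 8 tested RBOH genes in each of the 15 libraries, in normalised reads on linear axes from 0, with the mean and SD of each group of 3. All mutant libraries lie above all 6 Col-0 libraries for RBOHD, RBOHF and RBOHG and below them for RBOHB and RBOHI.

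RBOHD, the immune oxidase, was the highest member per exon length in every group, and it rose in all mutants. RBOHD had 9204, 8894 and 9138 normalised reads in wrky-qm, 12538, 12583 and 11763 in wrky-qm_15_hz and 12674, 11732 and 12301 in obe1-2, against 2618, 2737 and 2905 in Col-0_1 and 3538, 3675 and 3648 in Col-0_2. No mutant library came near a wild-type one, and wrky-qm lay below both other mutants. The level was 2.88-fold higher in wrky-qm (log2 1.52 ± 0.038 SE, adjusted p = 6.91e-16 by limma). It was 3.89-fold higher in wrky-qm_15_hz (log2 1.96 ± 0.038, limma adjusted p = 1.53e-18) and 3.87-fold higher in obe1-2 (log2 1.95 ± 0.038, limma adjusted p = 7.55e-19). Against Col-0_1 alone the log2 fold changes were 1.72, 2.16 and 2.15 in wrky-qm, wrky-qm_15_hz and obe1-2, and against Col-0_2 alone they were 1.33, 1.76 and 1.76. The order of levels was wrky-qm_15_hz, obe1-2, wrky-qm, Col-0_2, Col-0_1, and only the first pair did not differ beyond the replicate spread (obe1-2 minus wrky-qm_15_hz, log2 -0.01 ± 0.044, limma adjusted p = 0.941).

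RBOHF, which works with RBOHD in stomata and in the Casparian strip, also rose in each mutant, with smaller fold changes than RBOHD. RBOHF had 1886, 1916 and 2030 normalised reads in wrky-qm, 2214, 1902 and 1946 in wrky-qm_15_hz and 2834, 2985 and 2717 in obe1-2, against 1501, 1390 and 1364 in Col-0_1 and 1255, 1258 and 1389 in Col-0_2. The obe1-2 libraries stood above all others, and no mutant library overlapped a wild-type one. The change was 1.43-fold in wrky-qm (log2 0.52 ± 0.055, limma adjusted p = 6.47e-06), 1.49-fold in wrky-qm_15_hz (log2 0.57 ± 0.055, 5.30e-07) and 2.09-fold in obe1-2 (log2 1.07 ± 0.055, 6.49e-12). Against either wild-type set alone it lay between 0.45 and 0.58 on the log2 scale in wrky-qm, 0.51 and 0.63 in wrky-qm_15_hz, and 1.004 and 1.13 in obe1-2. The difference between the 2 wrky mutants did not pass (wrky-qm_15_hz minus wrky-qm, log2 0.05 ± 0.063, limma adjusted p = 0.479).

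RBOHE, known for its part in tapetal cell death in anthers, rose in wrky-qm_15_hz and obe1-2 and not in wrky-qm. RBOHE had 464, 492 and 460 normalised reads in wrky-qm, 1470, 1454 and 1368 in wrky-qm_15_hz and 2374, 2432 and 2050 in obe1-2, against 636, 685 and 639 in Col-0_1 and 514, 513 and 523 in Col-0_2. The wrky-qm libraries were the lowest of all 15, and the obe1-2 libraries the highest. RBOHE was 2.46-fold higher in wrky-qm_15_hz (log2 1.30 ± 0.061, limma adjusted p = 9.59e-12) and 3.92-fold higher in obe1-2 (log2 1.97 ± 0.061, limma adjusted p = 1.67e-15). In wrky-qm the log2 difference was -0.30 ± 0.061 with a limma adjusted p of 0.217. It was -0.47 against Col-0_1 alone, where it passed (limma adjusted p = 1.24e-05), and -0.13 against Col-0_2 alone, where it did not (limma adjusted p = 0.150). After quantile normalisation RBOHE was called lower in wrky-qm as well (log2 -0.41, limma adjusted p = 0.0191). With Col-0_1 alone as wild type the log2 fold changes were 1.13 in wrky-qm_15_hz and 1.80 in obe1-2, and with Col-0_2 alone they were 1.47 and 2.14. Direct tests set the mutants apart: RBOHE was 3.03-fold higher in wrky-qm_15_hz than in wrky-qm (log2 1.60 ± 0.070, limma adjusted p = 2.11e-14) and 1.59-fold higher in obe1-2 than in wrky-qm_15_hz (log2 0.67 ± 0.070, 7.96e-08).

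RBOHG rose in all mutants, by a smaller amount in wrky-qm. RBOHG had 930, 815 and 772 normalised reads in wrky-qm, 1537, 1427 and 1427 in wrky-qm_15_hz and 1487, 1478 and 1449 in obe1-2, against 520, 455 and 539 in Col-0_1 and 694, 728 and 690 in Col-0_2. The lowest wrky-qm library stood little above the highest Col-0_2 library, while the other mutants were far from both sets. The change was 1.40-fold in wrky-qm (log2 0.49 ± 0.066, limma adjusted p = 0.0167), 2.46-fold in wrky-qm_15_hz (log2 1.30 ± 0.066, 1.11e-10) and 2.47-fold in obe1-2 (log2 1.30 ± 0.066, 5.56e-11). In wrky-qm the call rested on single libraries. It was lost without wrky-qm replicate 1 (limma adjusted p = 0.129), Col-0_2 replicate 1 (0.0523) or Col-0_2 replicate 3 (0.0567), and after quantile normalisation (0.0831). Against Col-0_1 alone the log2 fold changes were 0.73, 1.54 and 1.55 in wrky-qm, wrky-qm_15_hz and obe1-2, and against Col-0_2 alone 0.25, 1.05 and 1.06. The RBOHG difference between obe1-2 and wrky-qm_15_hz did not pass (log2 0.01 ± 0.076, limma adjusted p = 0.972).

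RBOHB, the member linked to seeds, fell in all mutants and had the lowest fold changes of the family in wrky-qm_15_hz and obe1-2. RBOHB had 218, 209 and 222 normalised reads in wrky-qm, 29.7, 35.2 and 16.1 in wrky-qm_15_hz and 62.0, 35.2 and 33.0 in obe1-2, against 518, 414 and 457 in Col-0_1 and 667, 786 and 669 in Col-0_2. The wrky-qm libraries lay between the wild-type sets and the other mutants, with no overlap on either side. The level in wrky-qm was 0.381 times that of wild type (log2 -1.39 ± 0.22, limma adjusted p = 0.00186). It was 0.0467 times in wrky-qm_15_hz (log2 -4.42 ± 0.22, limma adjusted p = 6.74e-12) and 0.0746 times in obe1-2 (log2 -3.74 ± 0.22, limma adjusted p = 7.53e-11). Against Col-0_1 alone the log2 fold changes were -1.09, -4.11 and -3.44 in wrky-qm, wrky-qm_15_hz and obe1-2, and against Col-0_2 alone -1.70, -4.73 and -4.05. RBOHB was higher in obe1-2 than in wrky-qm_15_hz (log2 0.68 ± 0.25, limma adjusted p = 0.0316), a call lost without obe1-2 replicate 1 (log2 0.39, 0.213) or wrky-qm_15_hz replicate 3 (log2 0.35, 0.218). It was also lost in a fit to the libraries of those groups alone (limma adjusted p = 0.174).

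RBOHI fell in all mutants from a low level. RBOHI had 102, 52.2 and 49.0 normalised reads in wrky-qm, 46.1, 41.0 and 27.2 in wrky-qm_15_hz and 18.5, 29.2 and 20.2 in obe1-2, against 131, 143 and 189 in Col-0_1 and 209, 219 and 219 in Col-0_2. All mutant libraries were below all wild-type ones, and wrky-qm replicate 1 stood well above the other replicates of its group. The level was 0.356 times wild type in wrky-qm (log2 -1.49 ± 0.26, limma adjusted p = 0.00293), 0.210 times in wrky-qm_15_hz (log2 -2.25 ± 0.26, 6.81e-06) and 0.127 times in obe1-2 (log2 -2.97 ± 0.26, 5.95e-08). Against Col-0_1 alone the log2 fold changes were -1.24, -2.004 and -2.73 in wrky-qm, wrky-qm_15_hz and obe1-2, and against Col-0_2 alone -1.74, -2.50 and -3.22. Its replicates spread most, with a median coefficient of variation of 25.5% against 3.75% for RBOHD. The difference between wrky-qm_15_hz and wrky-qm (log2 -0.76 ± 0.30, limma adjusted p = 0.0315) was lost without wrky-qm replicate 1 (log2 -0.43, 0.224) or wrky-qm_15_hz replicate 3 (log2 -0.55, 0.149).

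RBOHC, the root hair oxidase, fell in wrky-qm_15_hz and obe1-2 and did not pass the test in wrky-qm. RBOHC had 708, 721 and 721 normalised reads in wrky-qm, 454, 452 and 462 in wrky-qm_15_hz and 340, 297 and 357 in obe1-2, against 728, 775 and 667 in Col-0_1 and 727, 641 and 742 in Col-0_2. The wrky-qm libraries lay inside the wild-type range, and the other mutants formed steps below it. The level was 0.641 times wild type in wrky-qm_15_hz (log2 -0.64 ± 0.077, limma adjusted p = 3.53e-06) and 0.465 times in obe1-2 (log2 -1.11 ± 0.077, limma adjusted p = 5.18e-10). In wrky-qm the log2 difference was 0.01 ± 0.077, with opposite signs against the wild-type sets, so it could not be called. The limma adjusted p was 0.959 against Col-0_1 alone and 0.830 against Col-0_2 alone. Against Col-0_1 alone the log2 values were -0.01, -0.66 and -1.13 in wrky-qm, wrky-qm_15_hz and obe1-2, and against Col-0_2 alone 0.03, -0.62 and -1.09. Of the called members, RBOHC differed least between the wild-type sets (Col-0_2 minus Col-0_1, log2 -0.04 ± 0.089, limma adjusted p = 0.820). It was lower in obe1-2 than in wrky-qm_15_hz (log2 -0.46 ± 0.089, limma adjusted p = 0.000189).

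RBOHA had 172, 242 and 253 normalised reads in wrky-qm, 153, 152 and 133 in wrky-qm_15_hz and 205, 173 and 192 in obe1-2, against 178, 128 and 171 in Col-0_1 and 132, 155 and 154 in Col-0_2. Every mutant overlapped the wild-type libraries. The log2 fold change was 0.53 ± 0.16 in wrky-qm (limma adjusted p = 0.0587), -0.06 ± 0.16 in wrky-qm_15_hz (1) and 0.32 ± 0.16 in obe1-2 (0.227). Against Col-0_1 alone the log2 values were 0.48, -0.11 and 0.27 in wrky-qm, wrky-qm_15_hz and obe1-2, and against Col-0_2 alone 0.58, -0.01 and 0.37. The wrky-qm value passed against each set taken alone (limma adjusted p = 0.0415 and 0.0136) and when genes needed a mean of at least 10 (0.0450). RBOHA also passed as higher in wrky-qm without wrky-qm replicate 1 (log2 0.70, limma adjusted p = 0.0130) or Col-0_1 replicate 1 (log2 0.57, 0.0470). After quantile normalisation it passed in obe1-2 (log2 0.77, limma adjusted p = 0.00309). RBOHJ was listed at 0 in all 15 libraries, and RBOHH had 1.91 normalised reads in wrky-qm replicate 1 and at most 0.00335 in any other library, so the pollen pair was not tested.

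**Figure D2:**
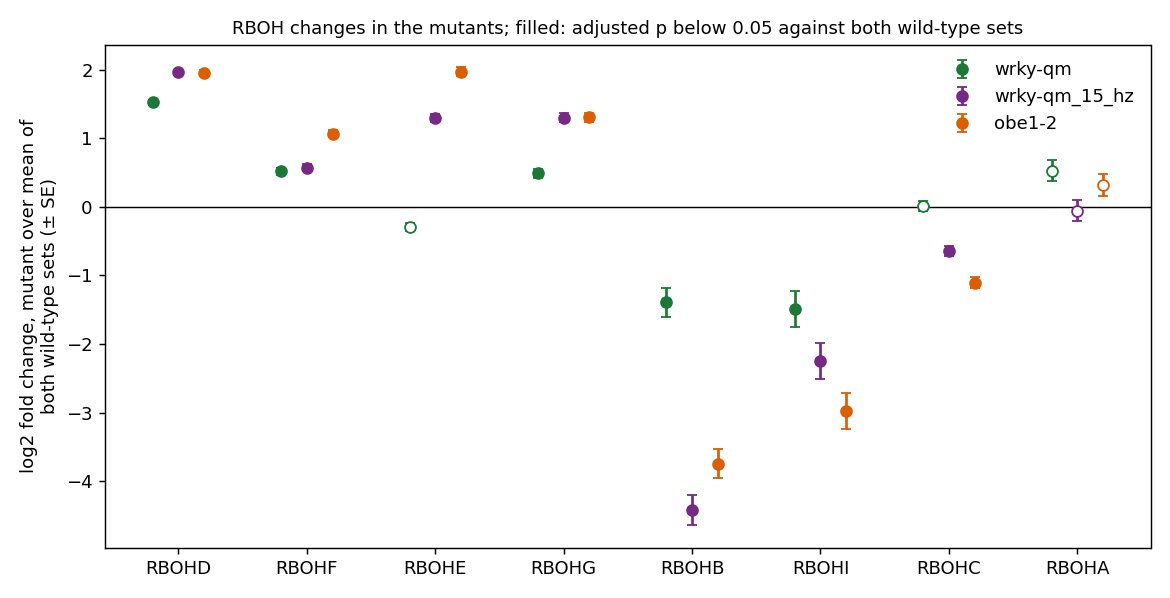
Log2 fold change of each tested RBOH gene in wrky-qm, wrky-qm_15_hz and obe1-2 over the mean of both wild-type sets, with SE from limma, filled where the adjusted p was below 0.05 against both sets. In wrky-qm, RBOHC has an open point near 0 and RBOHE an open point below 0. Both have filled points away from 0 in the other mutants.

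Compared with wrky-qm, wrky-qm_15_hz had 3 members higher (RBOHD, RBOHE, RBOHG) and 4 lower (RBOHA, RBOHB, RBOHC, RBOHI), where 64.4% of all genes tested were called, 29.5% higher and 34.9% lower. RBOHB was 0.123 times as high in wrky-qm_15_hz as in wrky-qm (log2 -3.03 ± 0.25, limma adjusted p = 8.55e-10). RBOHD was 1.35-fold higher in wrky-qm_15_hz than in wrky-qm (log2 0.44 ± 0.044, limma adjusted p = 1.73e-08). Compared with wrky-qm, obe1-2 had 4 members higher (RBOHD, RBOHE, RBOHF, RBOHG) and 3 lower (RBOHB, RBOHC, RBOHI), where 70% of all genes were called, 31.1% higher and 38.9% lower. Between obe1-2 and wrky-qm_15_hz, 3 members were higher in obe1-2 (RBOHB, RBOHE, RBOHF) and 1 was lower (RBOHC), where 46.4% of all genes were called, 20.3% higher and 26.1% lower. Without wrky-qm_15_hz replicate 3 or obe1-2 replicate 2, RBOHI was also lower in obe1-2 (limma adjusted p = 0.0217 and 0.0276). With so large a share of all genes called, these counts do not set the family apart.

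The wild-type sets, of the same genotype, also differed in some members. RBOHD was higher in Col-0_2 than in Col-0_1 (log2 0.40 ± 0.044, limma adjusted p = 5.72e-07), as was RBOHG (log2 0.48 ± 0.076, 5.28e-05). RBOHE was lower in Col-0_2 than in Col-0_1 (log2 -0.34 ± 0.070, limma adjusted p = 0.00107). That made 2 members higher and 1 lower, where 23.2% of all genes were called, 13.7% higher and 9.52% lower. The RBOHD difference between the sets was close to that between wrky-qm_15_hz and wrky-qm, while the RBOHB difference between the sets (log2 0.61 ± 0.25, limma adjusted p = 0.0868) did not pass and was smaller than the falls in wrky-qm_15_hz and obe1-2 against either set.

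Levels of different members were compared per kb of exon length in the RefSeq annotation. The sum over the family was 3814 ± 53.5 normalised reads per kb in wrky-qm, with 5036 ± 187 in wrky-qm_15_hz and 5462 ± 142 in obe1-2, against 1971 ± 33.0 in the Col-0_1 set and 2307 ± 45.7 in the Col-0_2 set (SD, n = 3 each). RBOHD made up 66.1% of the per-length sum in wrky-qm, with 67.8% in wrky-qm_15_hz and 62.2% in obe1-2, against 38.8% in the Col-0_1 set and 43.6% in the Col-0_2 set. RBOHB made up 2.102%, 0.197% and 0.292% in wrky-qm, wrky-qm_15_hz and obe1-2, against 8.69% in the Col-0_1 set and 11.3% in the Col-0_2 set. The family thus held more transcript per length in each mutant, with a larger share from RBOHD. RBOHC had a share of 5.71% in wrky-qm, with 2.76% in wrky-qm_15_hz and 1.84% in obe1-2, against 11.2% in the Col-0_1 set and 9.28% in the Col-0_2 set. In wrky-qm its share was below both wild-type sets while its level lay inside their range. RBOHE reached 12.6% in obe1-2, close to RBOHF at 13.05% there.

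**Figure D3:**
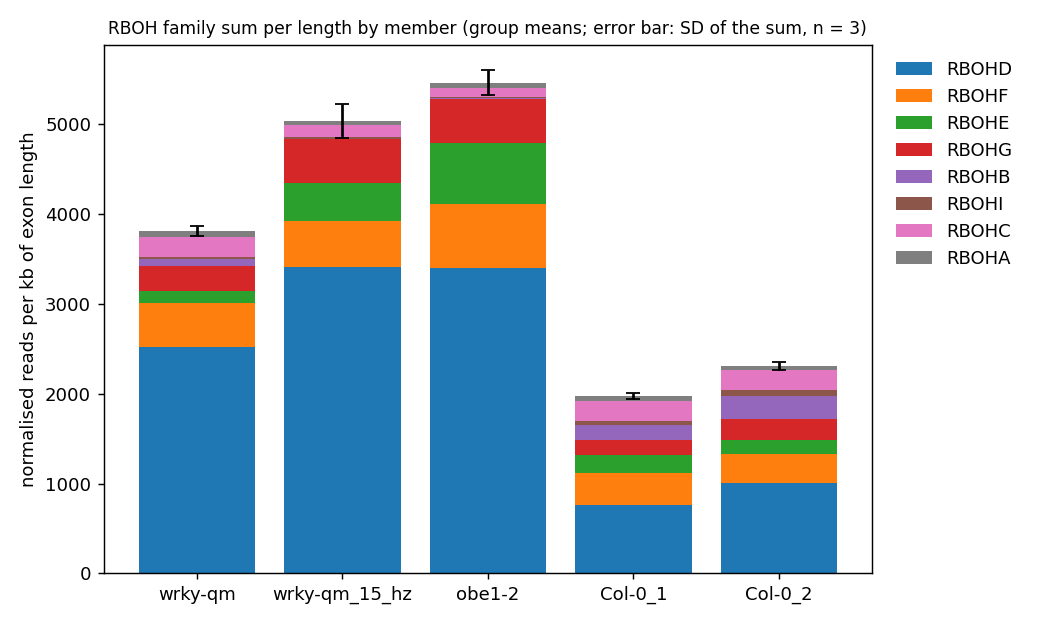
Sum of the RBOH family in normalised reads per kb of exon length, stacked by member from group means, with the SD of the sum over 3 libraries. The RBOHD block is 2520 in wrky-qm, with 3412 in wrky-qm_15_hz and 3396 in obe1-2, against 764 in the Col-0_1 set and 1005 in the Col-0_2 set.

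The strandedness of the libraries is not given in the sources used here, and 4 members overlap a gene on the other strand in the annotation. The overlap is 169 bases for RBOHA with AT5G07380, 59 for RBOHB with AT1G09100, 133 for RBOHE with AT1G19240 and 37 for RBOHG with AT4G25080, or 1.22% to 5.35% of exon length. The neighbour of RBOHG was far more abundant, at 15054 normalised reads in wrky-qm, with 9611 in wrky-qm_15_hz and 6844 in obe1-2, against 16778 in the Col-0_1 set and 13516 in the Col-0_2 set. The neighbour of RBOHB was also above its member in every group, at 1121 normalised reads in wrky-qm, with 1341 in wrky-qm_15_hz and 1801 in obe1-2, against 1199 in the Col-0_1 libraries and 1181 in the Col-0_2 libraries. The neighbour of RBOHE averaged 271, 383 and 378 normalised reads in wrky-qm, wrky-qm_15_hz and obe1-2, against 334 in the Col-0_1 set and 306 in the Col-0_2 set, below RBOHE in every group. The part of reads from these neighbours in the member values was not tested.

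Across the 5 group means on the log2 scale, each centred on its own average, the members closest to each other were RBOHA and RBOHF and RBOHF and RBOHG, both at a root-mean-square distance of 0.34, followed by RBOHD and RBOHG at 0.41. The farthest were RBOHB and RBOHD at 2.71. By the same measure over 25084 genes, the closest to RBOHD were AT5G25240 (0.063), AT3G47570 (0.075) and AT3G60270 (0.077). The closest to RBOHC were MAP65-6 (0.030), HSD2 (0.033) and ETT (0.035), and the closest to RBOHF was CYP71A21 (0.037). RBOHE was followed most closely by AT4G09300 (0.074) and ZIP2 (0.11), RBOHG by AT5G07610 (0.051), RBOHA by AT4G11900 (0.021) and RBOHI by TBL15 (0.082). No gene followed RBOHB closely, the nearest being AT5G10580 at 0.22. With 5 points per gene these distances are a description.

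Genes known to act on RBOHD in immunity rose in most cases. Of 13 listed (receptors, receptor kinases and calcium-dependent kinases), 9 rose and 0 fell in wrky-qm, and 12 rose and 0 fell in both wrky-qm_15_hz and obe1-2, where 15.5%, 26.5% and 29.2% of all genes were called higher. In Col-0_2 against Col-0_1, sets of 1 genotype, 9 of the 13 were also higher and 0 lower, with a median log2 difference of 0.21, where 13.7% of all genes were higher. In the mutants the median log2 fold change of the list was 0.34, 0.92 and 1.15 in wrky-qm, wrky-qm_15_hz and obe1-2, against 0, -0.04 and -0.08 over all genes tested. BIK1, the kinase that phosphorylates RBOHD after pattern recognition, rose by 0.56 ± 0.049, 2.08 ± 0.049 and 2.28 ± 0.049 on the log2 scale in wrky-qm, wrky-qm_15_hz and obe1-2 (limma adjusted p = 3.47e-05, 4.68e-17 and 3.96e-18). CPK5, a calcium-dependent kinase that does the same during signal spread, rose by 0.28, 0.69 and 0.86. CRK2, a receptor-like kinase that phosphorylates RBOHD, rose by 0.92, 1.58 and 2.19. Of 4 genes that hold RBOHD or BIK1 back, 2 rose and 0 fell in wrky-qm. In wrky-qm_15_hz 1 rose and 0 fell, and in obe1-2 1 rose and 1 fell. Of all genes tested, 26.9%, 54% and 61.7% were called. The median log2 fold change of these 4 was 0.57, -0.07 and 0.03 in wrky-qm, wrky-qm_15_hz and obe1-2. In Col-0_2 against Col-0_1, 2 of the 4 were higher, where 13.7% of all genes were higher. Among these 4, CPK28, which promotes BIK1 turnover, rose in all mutants, by 2.48, 1.52 and 0.88. PBL13, a receptor-like cytoplasmic kinase, rose in wrky-qm (0.96). PUB25, a ubiquitin ligase of BIK1, fell in obe1-2 (-0.47), and PUB26 was called in no mutant.

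Of 6 genes that activate RBOHF through abscisic acid or calcium, 5 were tested and CIPK11 was listed at 0 in every library. In wrky-qm 3 rose and 0 fell, in wrky-qm_15_hz 4 rose and 1 fell, and in obe1-2 3 rose and 1 fell, where 26.9%, 54% and 61.7% of all genes were called. The median log2 fold change was 0.32, 0.41 and 0.42, against 0, -0.04 and -0.08 over all genes. Between the wild-type sets 0 of the 5 differed, where 23.2% of all genes were called. OST1, the abscisic acid kinase that phosphorylates RBOHF, rose by 0.32 ± 0.065, 0.44 ± 0.065 and 0.61 ± 0.065 on the log2 scale in wrky-qm, wrky-qm_15_hz and obe1-2 (limma adjusted p = 0.00492, 6.75e-05 and 5.84e-07). CIPK26, a calcium-sensor kinase bound to RBOHF, had log2 values of 0.12, 0.17 and 0.42 and passed in wrky-qm_15_hz and obe1-2. CBL10, a calcium sensor, fell in wrky-qm_15_hz (log2 -0.92) and obe1-2 (-1.33). The other calcium sensors of the list, CBL1 and CBL9, went the other way. CBL1 rose in wrky-qm (log2 1.71) and wrky-qm_15_hz (0.41) and did not pass in obe1-2 (0.12). CBL9 rose in wrky-qm (log2 0.34), wrky-qm_15_hz (0.89) and obe1-2 (1.45). SGN3, the receptor of Casparian strip integrity that acts upstream of RBOHF, fell in wrky-qm_15_hz (log2 -0.96 ± 0.093, limma adjusted p = 1.62e-07) and did not pass in wrky-qm (0.20) or obe1-2 (-0.21). Of 6 endodermis genes 0 rose and 3 fell in wrky-qm, 0 rose and 5 fell in wrky-qm_15_hz, and 1 rose and 1 fell in obe1-2, beside the same shares of all genes. Their median was -0.22, -1.53 and -0.14. In Col-0_2 against Col-0_1, 1 was higher and 0 lower, where 23.2% of all genes were called. The endodermis list summed to 3639 to 3827 normalised reads in wrky-qm, 1490 to 1631 in wrky-qm_15_hz and 4770 to 5083 in obe1-2, against 4225 to 4633 in Col-0_1 and 4410 to 4740 in Col-0_2. RBOHF was higher in all mutants, including the one in which this sum was lowest, and the part of these cells in its level was not tested.

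Root hair genes fell beside RBOHC in wrky-qm_15_hz and obe1-2, and also in wrky-qm, where RBOHC did not pass. Of 5 root hair markers 0 rose in any mutant, and 3 fell in wrky-qm, with 4 in wrky-qm_15_hz and 5 in obe1-2, where 11.4%, 27.4% and 32.5% of all genes were called lower. Between the wild-type sets 0 of the 5 were called, beside 23.2% of all genes. They summed to 926 to 1048 normalised reads in wrky-qm, 671 to 748 in wrky-qm_15_hz and 46.1 to 65.4 in obe1-2, against 2146 to 2269 in Col-0_1 and 2058 to 2318 in Col-0_2, and none was at 0 in all libraries of a group. PRP3 fell in each mutant (log2 -1.31 in wrky-qm, with -1.60 in wrky-qm_15_hz and -5.96 in obe1-2), and so did COBL9 (-1.502, -2.61 and -6.196). The transcription factor RSL4 fell in obe1-2 (log2 -4.07 ± 0.50, limma adjusted p = 4.30e-06), with -0.07 in wrky-qm and -1.48 in wrky-qm_15_hz, neither past the test. RBOHC thus kept 0.465 times its wild-type level in obe1-2 where these markers were nearly gone. Their part in the RBOHC values was not tested.

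The ROP module, the small GTPases and partners that steer RBOHC in root hairs, had 3 of 8 genes higher and 0 lower in wrky-qm, 1 higher and 6 lower in wrky-qm_15_hz, and 1 higher and 7 lower in obe1-2. FER, the receptor kinase upstream of ROP2, rose by 0.54, 0.73 and 0.72 on the log2 scale in wrky-qm, wrky-qm_15_hz and obe1-2. SCN1, which confines RBOHC activity to the hair tip, rose by 0.30 in wrky-qm and fell in wrky-qm_15_hz (-0.37) and obe1-2 (-0.78). ROP2 fell in obe1-2 (-0.26) and did not pass in wrky-qm (0.13) or wrky-qm_15_hz (-0.08). ROPGEF4, which activates ROP proteins, fell in wrky-qm_15_hz (-1.83) and obe1-2 (-3.82). The median of the list was 0.16, -0.38 and -0.63, against 0, -0.04 and -0.08 over all genes, of which 26.9%, 54% and 61.7% were called. In Col-0_2 against Col-0_1, 1 of the 8 was higher and 1 lower, where 23.2% of all genes were called.

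**Figure D4:**
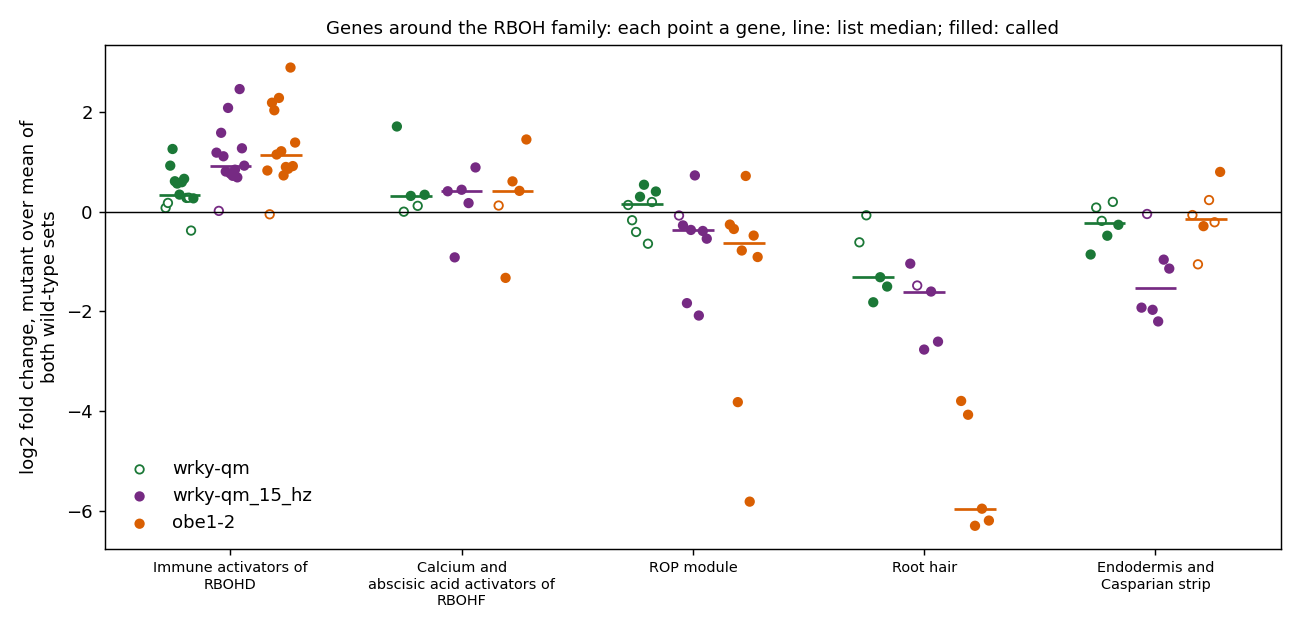
Log2 fold change over the mean of both wild-type sets of each tested gene in 5 lists around the RBOH family, by mutant, with a line at the list median and filled points where called. The immune activators of RBOHD have medians of 0.34, 0.92 and 1.15 in wrky-qm, wrky-qm_15_hz and obe1-2, and the root hair genes -1.31, -1.60 and -5.96.

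Of 7 pollen tube genes, partners and markers around RBOHH and RBOHJ, 5 were tested. ANX2 was listed at 0 in every library, and BUPS2 in every library but wrky-qm replicate 2, which had 2.03 normalised reads. MRI, a kinase that acts downstream in pollen tubes and in root hairs, fell in wrky-qm_15_hz (log2 -2.05) and obe1-2 (-5.996), with -1.03 in wrky-qm (limma adjusted p = 0.207). LRX8 of the same list went the other way. It rose in wrky-qm_15_hz (log2 0.69, limma adjusted p = 1.34e-05) and obe1-2 (0.55, 0.000226) and did not pass in wrky-qm (0.28). The pectin methylesterase VGD1 averaged at most 1.91 normalised reads in any group, whereas the receptor kinase ANX1 averaged 419 in wrky-qm, with 273 in wrky-qm_15_hz and 177 in obe1-2, against 460 in the Col-0_1 set and 393 in the Col-0_2 set. Over the list, 0 rose and 0 fell in wrky-qm, 1 rose and 2 fell in wrky-qm_15_hz, and 1 rose and 3 fell in obe1-2, where 26.9%, 54% and 61.7% of all genes were called. Between the wild-type sets 0 of the 5 tested were called, beside 23.2% of all genes. The list summed to 1011 to 1090 normalised reads in wrky-qm, 854 to 1102 in wrky-qm_15_hz and 718 to 755 in obe1-2, against 1094 to 1174 in Col-0_1 and 910 to 1023 in Col-0_2.

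Seed and green tissue markers moved with the mutants too. The 9 seed storage and oil body genes summed to 9442 to 9742 normalised reads in wrky-qm, 38831 to 42193 in wrky-qm_15_hz and 96.4 to 130 in obe1-2, against 20.9 to 29.9 in Col-0_1 and 393 to 493 in Col-0_2. Of these, 8 rose and 0 fell in wrky-qm, 9 rose and 0 fell in wrky-qm_15_hz, and 2 rose and 1 fell in obe1-2, where 15.5%, 26.5% and 29.2% of all genes were called higher. In Col-0_2 against Col-0_1, 4 of the 9 were also higher, where 13.7% of all genes were higher. SESA4 was at 0 in all libraries of wrky-qm, CRU2 and SESA4 in those of obe1-2, CRC, CRU2, SESA2 and SESA3 in those of Col-0_1, and SESA1, SESA2 and SESA3 in those of Col-0_2. RBOHB was nearly as low in obe1-2, where the seed sum was small, as in wrky-qm_15_hz, where it was largest, and the part of seed transcripts in its values was not tested. The 4 green tissue genes summed to 1597520 to 1643180 in wrky-qm, 1039700 to 1117300 in wrky-qm_15_hz and 570953 to 612036 in obe1-2, against 1492200 to 1635210 in Col-0_1 and 1542280 to 1578520 in Col-0_2. Of the 4, 1 rose and 0 fell in wrky-qm, and all 4 fell in wrky-qm_15_hz and in obe1-2, where 27.4% and 32.5% of all genes were called lower. In Col-0_2 against Col-0_1, 1 was higher and 1 lower, where 23.2% of all genes were called. None was at 0. RBOHD rose in wrky-qm, where this sum was within or just above the wild-type range, as in the other mutants, and the part of green tissue in the RBOH levels was not tested.

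Genes for superoxide dismutases, wall peroxidases and hydrogen peroxide sensing changed in both directions. Whether their proteins act on superoxide made by RBOH enzymes was not tested. Of 7 superoxide dismutases, which turn superoxide into hydrogen peroxide, 0 rose and 1 fell in wrky-qm, 4 rose and 3 fell in wrky-qm_15_hz, and 2 rose and 4 fell in obe1-2, where 26.9%, 54% and 61.7% of all genes were called. The dismutase median was -0.09, 0.46 and -0.39, against 0, -0.04 and -0.08 over all genes. Between the wild-type sets, 3 dismutases were higher and 2 lower in Col-0_2, where 13.7% of all genes were higher and 9.52% lower. FSD1 fell in wrky-qm (-1.21) and obe1-2 (-1.83) and rose in wrky-qm_15_hz (0.60). Of 10 genes for wall peroxidases and hydrogen peroxide sensing, 5 rose in each mutant, though not the same 5. In wrky-qm 1 fell, and 5 fell in each of wrky-qm_15_hz and obe1-2. The median of these 10 was 0.21, 0.20 and -0.03. In Col-0_2 against Col-0_1, 5 of the 10 were higher and 3 lower, beside the same shares of all genes. PRX71, a wall peroxidase, averaged 2649 ± 156 normalised reads in wrky-qm, with 161822 ± 1794 in wrky-qm_15_hz and 208827 ± 10839 in obe1-2, against 477 ± 3.53 in the Col-0_1 set and 1128 ± 103 in the Col-0_2 set (SD, n = 3 each). Its log2 fold change was 1.85, 7.78 and 8.15. UPB1, a transcription factor that represses peroxidase genes in the root, fell in each mutant (log2 -1.19 in wrky-qm, with -3.02 in wrky-qm_15_hz and -3.66 in obe1-2). Its limma adjusted p-values were 0.00875, 4.49e-08 and 1.26e-09. PIP2;1 and GHR1 of the same list fell in wrky-qm_15_hz (log2 -1.30 and -1.57) and obe1-2 (-1.22 and -3.21). In wrky-qm PIP2;1 rose (log2 0.28, limma adjusted p = 0.000182), as did PIP1;4 (0.18, 0.0194), beside PRX71, PRX4 and PRX62. In the other mutants PIP1;4 also fell, and PRX34 and HPCA1 rose beside PRX71, PRX4 and PRX62. A link between UPB1 and the peroxidase levels was not tested.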

How the data were processed

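Per the labels, total RNA of 11-day-old seedlings was extracted with TRIzol and sequenced as paired-end Illumina libraries. Among the tools of the authors, the submitters' processing notes list edgeR, HISAT2 and bcl2fastq, with TAIR10 as the build. What each tool did, its version, the strandedness and the annotation: not given in the sources used here. The deposited table of the authors holds 1 signal value per gene and library. From the values, the deposited numbers have the form of pseudo-counts that the authors' edgeR step makes at a common library size, an adjustment within groups, so the replicate spread may differ from that of raw counts. Whole reads could not be read back, so no count test was run and the log-scale test foreseen for such a unit was applied.

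Values below 1e-06 were treated as 0. Genes whose mean reached 1 in some group (25085 of 32548, 6167 others listed at 0 throughout) were fitted as log2(value + 1) with limma-trend (limma 3.58.1, R 4.3.3) over all 15 libraries with 5 groups, after a check on simulated data. A mutant call needed the same direction against both wild-type sets, with the larger p kept, adjusted by Benjamini-Hochberg over all genes tested, and a threshold of 0.05. Fold changes are against the mean of both sets. All p-values in the text are such adjusted limma p-values.

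The members and the 12 lists of related genes were chosen with earlier results of these data known, and list membership was written from knowledge of gene function. All 10 members are named. Other genes were named mainly from the 3 called genes of smallest p per list, direction and mutant. Direct partners of RBOH proteins and the 3 genes nearest in pattern were further sources. Not every gene of these sources is named, so the named genes are a selection. Names, exon lengths and promoters came from RefSeq assembly TAIR10.1, matched by locus only (all 10 members and all 32548 rows). The promoter of 1 member is not reported here. Alternatives were pseudocounts of 0.5 and 5, no filter, a mean of at least 10, quantile normalisation, a replicate block, fits to the groups compared, each wild-type set alone, and leaving out each library.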

Additional observations from a re-analysis of the deposited data

Results flagged for a closer look

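Among 24 tests of a member between mutants, 6 differences passed limma and were at least 2-fold in size. Of all genes tested, 64.4% were called between wrky-qm_15_hz and wrky-qm and 70% between obe1-2 and wrky-qm. Between obe1-2 and wrky-qm_15_hz 46.4% were called. The share of all genes that also reached 2-fold was not counted, so these 6 do not set the family apart. Between wrky-qm_15_hz and wrky-qm, the log2 differences were -3.03 for RBOHB and 1.60 for RBOHE. Between obe1-2 and wrky-qm, the log2 differences were -2.35 for RBOHB, -1.11 for RBOHC, 2.27 for RBOHE and -1.49 for RBOHI. For RBOHC and RBOHE the mutants differ in whether the gene was called against both wild-type sets, and for RBOHB and RBOHI in how far it fell. RBOHC in wrky-qm lay inside the wild-type range. RBOHE in wrky-qm was not called, but its libraries lay below all wild-type ones. It passed as lower there against Col-0_1 alone (log2 -0.47, limma adjusted p = 1.24e-05). Both contrasts share the wrky-qm libraries and compare groups whose zeros were stored differently. In each of the 6 cases, the 3 libraries of the first mutant did not overlap those of wrky-qm. The share of all genes without such overlap was not counted.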

How the results depend on the processing

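Of 848 member values under the alternatives, 804 kept their direction and side of the threshold, 13 lost a call, 14 gained one and 17 changed sign. The 14 calls of wrky-qm_15_hz and obe1-2 against wild type passed under every alternative. Counts of called members moved by more than 1.5 times in 3 comparisons. After quantile normalisation 2 members were lower in wrky-qm_15_hz than in wrky-qm, not 4, as RBOHA and RBOHI no longer passed. With a minimum mean of 10, 2 members were lower in obe1-2 than in wrky-qm_15_hz, not 1. In a fit to the wild-type libraries alone, 4 members were higher in Col-0_2 than in Col-0_1, not 2, with RBOHB (limma adjusted p = 4.00e-05) and RBOHI (0.0270) added. Quantile normalisation also ended the RBOHI call between obe1-2 and wrky-qm (log2 -0.33, limma adjusted p = 0.347). Smaller moves came from quantile normalisation (RBOHE gained and RBOHG lost in wrky-qm, RBOHA gained in obe1-2 against wild type and against wrky-qm_15_hz), from a minimum mean of 10 (RBOHA gained in wrky-qm) and from fits to the groups compared (RBOHI lost between wrky-qm_15_hz and wrky-qm, RBOHB lost between obe1-2 and wrky-qm_15_hz). Quantile normalisation moved the median of all genes between obe1-2 and wrky-qm from -0.12 to 0.03. The cause was not tested.

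Leaving out 1 library gave 2 to 4 higher members and 2 to 2 lower in wrky-qm, 4 to 4 and 3 to 3 in wrky-qm_15_hz, and 4 to 4 and 3 to 3 in obe1-2. It gave 3 to 3 higher and 3 to 4 lower between wrky-qm_15_hz and wrky-qm, 4 to 4 and 3 to 3 between obe1-2 and wrky-qm, 2 to 3 and 1 to 2 between obe1-2 and wrky-qm_15_hz, and 2 to 2 and 1 to 1 between Col-0_2 and Col-0_1.

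All 17 sign changes were of values that passed no test. Under quantile normalisation, RBOHC in wrky-qm had a log2 value of -0.0759 and RBOHA in wrky-qm_15_hz 0.162. RBOHA had 0.275 between obe1-2 and wrky-qm, while RBOHG had -0.0375 and RBOHI 0.0204 between obe1-2 and wrky-qm_15_hz. Against Col-0_1 alone RBOHC in wrky-qm had -0.0104. With 1 library left out, RBOHC in wrky-qm ran from -0.0232 to 0.0350 and RBOHA in wrky-qm_15_hz from -0.132 to 0.00778. RBOHF between wrky-qm_15_hz and wrky-qm ran from -0.0142 to 0.0953. Between obe1-2 and wrky-qm_15_hz, RBOHD ran from -0.0385 to 0.0230 and RBOHG from -0.00950 to 0.0441. RBOHC between Col-0_2 and Col-0_1 ran from -0.0967 to 0.0255.

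Replicate numbers did not pair the libraries. Same-numbered libraries had correlations of deviations between -0.098 and 0.050, and 0 of 15 correlated best with their own number. A replicate block changed no member call, and with it 3827 genes were higher and 2809 lower in wrky-qm. Low members limit precision most, as RBOHI shows.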

Other observations

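The ferric reductase oxidases (FRO), which share the electron-carrying membrane part of RBOH proteins and reduce metal ions in place of oxygen, also moved. Of 8 genes, 3 rose and 2 fell in wrky-qm, 2 rose and 4 fell in wrky-qm_15_hz, and 3 rose and 4 fell in obe1-2. FRO3, a mitochondrial member, rose by 1.46, 1.61 and 3.27 on the log2 scale in wrky-qm, wrky-qm_15_hz and obe1-2. FRO6, of the plasma membrane in green tissue, fell in wrky-qm_15_hz (log2 -2.89) and obe1-2 (-5.04). The median of the list was 0.15, -0.62 and 0.07, against 0, -0.04 and -0.08 over all genes tested, of which 26.9%, 54% and 61.7% were called. The wild-type sets differed too, with 1 gene higher and 4 lower in Col-0_2 than in Col-0_1 and a median of -0.63. Of all genes, 13.7% were higher and 9.52% lower there. FRO4 and FRO5 are close copies side by side in the genome, so their values are uncertain.

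PRX33 and PRX34 are near-identical wall peroxidase genes, so how reads were shared between them is uncertain. In the deposited values PRX34 averaged 134236 ± 10468 normalised reads in wrky-qm_15_hz and 86217 ± 2810 in obe1-2, against 7908 ± 504 in the Col-0_1 set and 10631 ± 982 in the Col-0_2 set (SD, n = 3 each). PRX33 averaged 722 ± 43.6 in wrky-qm_15_hz and 69.2 ± 1.34 in obe1-2, against 1073 ± 101 in the Col-0_1 set and 2767 ± 127 in the Col-0_2 set.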
